A study of Oryza sativa with 12 samples.

Results

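The CCCH zinc finger family of rice was followed across WT seedlings and seedlings of an *OsHOX24* over-expression line, each kept in water or subjected to desiccation stress (DS). Members were all genes whose symbol or a synonym in the reference gene table is C3H followed by a number, with or without the prefix Os. The table held 53 such genes, of which 38 had a probe set of their own among the 15140 genes tested. Another 15 (*OsC3H1*, *OsC3H16* to *OsC3H19*, *OsC3H24*, *OsC3H25*, *OsC3H28*, *OsC3H30*, *OsC3H31*, *OsC3H38*, *OsC3H41*, *OsC3H49*, *OsC3H56* and *OsC3H63*) had none in the table of gene names and were not analysed here.

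CCCH zinc finger proteins carry 1 or more short loops in which 3 cysteines and 1 histidine hold a zinc ion. Unlike most zinc finger proteins they are known mainly for binding RNA, and family members take part in the splicing, 3' end processing and decay of mRNA, while others act on transcription. A plant subfamily with paired fingers behind an arginine-rich stretch is known from responses to drought, salt, ABA and leaf senescence.

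The 12 arrays fell into 4 groups of 3, which the study's methods describe as independent biological replicates. All plants were of the cultivar Pusa Basmati 1 and were 3 weeks old. WT_CT and WT_DS were wild-type seedlings, held for 3 h in water or dried for 3 h on tissue paper. H49_CT and H49_DS were seedlings over-expressing *OsHOX24* under the same conditions. The sample labels name the latter by the over-expressed gene, and the paper gives the line as H49, a single transgenic line with the open reading frame under a *ubiquitin* promoter. Drying is termed drought in the labels and desiccation in the paper. The values were log2 expression values, 1 per probe set and array, which the authors prepared by RMA. They measure RNA of whole seedlings, so that fewer cells of a type and less RNA per cell cannot be told apart.

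Over all genes, the lowest correlation between arrays of 1 group was 0.949. *HOX24* (*OsHOX24*), the over-expressed gene, was not higher in the arrays labelled H49: its log2 value lay between 2.83 and 5.61 in WT_CT and between 3.23 and 4.56 in H49_CT, and after DS between 9.38 and 10.29 in WT_DS and between 9.44 and 10.17 in H49_DS. Whether its probe set reads the transcript of the construct is not known. The study also measured the transgene in its lines by real-time PCR, which was not analysed here. Each comparison of genotypes therefore compares arrays as labelled. All 5 measured genes of the dehydration benchmark (*HOX24*, *BZIP23*, *LEA3*, *RAB16C* and *salT*) rose after DS in both genotypes, by a median of 3.99 on the log2 scale in WT and 4.74 in H49. Of the markers of green shoot and root, 2 and 3 were measured. The light-harvesting gene *CAB2R* had a log2 change of -2.35 in WT and -2.28 in H49, and the silicon transporter gene *Lsi2*, a root marker, of -1.81 and -1.34, all called. *CAB1R*, *OsPIP2;3* and *OsSHR1* were not called in either genotype. *CAB1R* was lower by less than 2-fold, at -0.87 in WT (limma adjusted p = 0.0361) and -0.76 in H49 (limma adjusted p = 0.0643). The part of such shifts in the C3H values was not tested.

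Levels of 7 C3H genes changed at least 2-fold after desiccation in WT, H49 or both. *OsC3H35*, *OsC3H60* and *OsC3H2* rose in both genotypes, by 2.12- to 3.95-fold, and *OsC3H22* fell in both, by 2.11- and 2.32-fold. These 4 genes called in both genotypes are 10.5% of the family, beside 10.4% of all genes (4.07% higher and 6.31% lower). Calls required a limma p of at most 0.05 after Benjamini-Hochberg adjustment, together with a change of 2-fold or more. In WT 3 members rose and 2 fell, and in H49 3 rose and 3 fell. The 5 members called in WT are 13.2% of the 38, where 13.4% of all genes were called, and the 6 called in H49 are 15.8%, where 14.6% of all genes were called. The 3 risen members are 7.89% of the family in each genotype, against 4.93% of all genes in WT and 5.26% in H49. The fallen members are 5.26% of the family in WT and 7.89% in H49, against 8.47% and 9.3% of all genes. The shares of called members were near those of all genes, in WT as in H49.

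**Figure D1:**
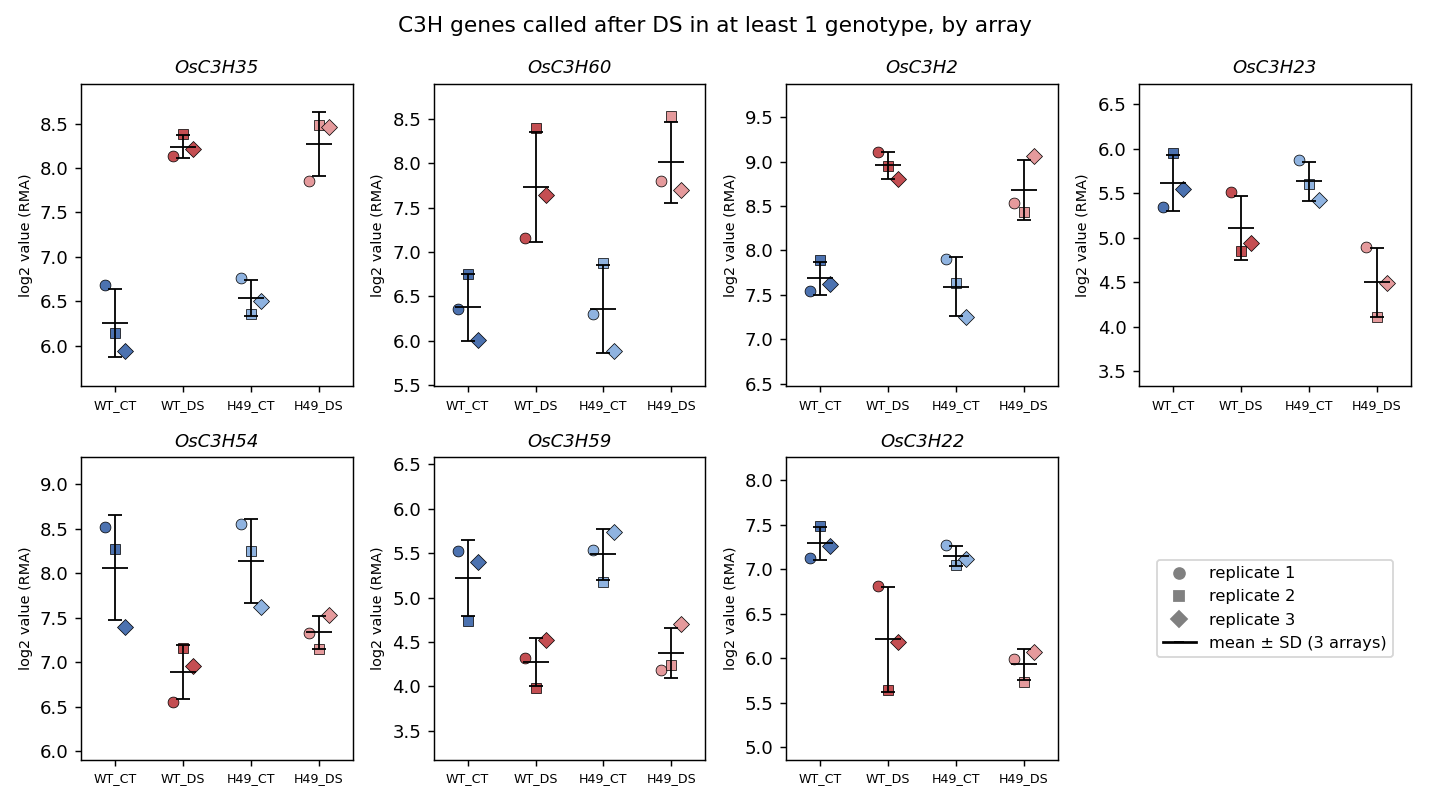
Log2 value of each array (points, shaped by replicate number) with the mean ± SD of 3 arrays, for the 7 C3H genes called after DS in at least 1 genotype, in WT_CT, WT_DS, H49_CT and H49_DS. Every panel spans the same range of log2 values; the DS arrays of *OsC3H35*, *OsC3H60* and *OsC3H2* sit above, and those of *OsC3H22* below, all control arrays of their genotype.

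*OsC3H35* showed the largest change of the family. It is known as *OsTZF1*, a tandem CCCH gene linked in rice to stress tolerance and to a delay of leaf senescence. Its log2 values were 6.69, 6.15 and 5.94 in WT_CT and 8.13, 8.38 and 8.21 in WT_DS. In H49_CT they were 6.76, 6.36 and 6.50, and in H49_DS 7.86, 8.48 and 8.46. Every DS array lay above every control array in both genotypes. WT seedlings rose 3.95-fold, a log2 change of 1.98 (SE 0.23, limma adjusted p = 7.07e-05), and H49 seedlings 3.31-fold, a log2 change of 1.73 (SE 0.23, limma adjusted p = 0.000175). Its mean rise over both genotypes ranked 225 of 15140 genes. A second probe set of this gene, with lower values, read 2.90, 2.83 and 2.19 in WT_CT, 3.93, 4.28 and 3.59 in WT_DS, 3.16, 3.41 and 2.45 in H49_CT and 4.71, 5.12 and 5.43 in H49_DS. It rose by 1.29 in WT (adjusted p = 0.018 from limma over all probe sets) and by 2.08 in H49 (adjusted p = 0.00146). On this probe set of *OsC3H35* the arrays labelled H49_DS lay above those labelled WT_DS, by 1.15 on the log2 scale, but the difference did not pass the test over all probe sets (adjusted p = 0.967 from limma), and the first probe set differed by 0.03.

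*OsC3H60* encodes U2AF35A, the small subunit of the U2 auxiliary factor that recognises the 3' splice site of introns. Its log2 values were 6.36, 6.76 and 6.01 in WT_CT and 7.16, 8.39 and 7.64 in WT_DS. In H49_CT they were 6.30, 6.88 and 5.89, and in H49_DS 7.80, 8.53 and 7.70. The DS arrays lay above the control arrays in both genotypes, with a wide spread in each group. The rise was 2.56-fold in WT, a log2 change of 1.36 (SE 0.34, limma adjusted p = 0.0111), and 3.14-fold in H49, a log2 change of 1.65 (limma adjusted p = 0.00323). The call in WT was lost without WT_CT replicate 3 (1.17, adjusted p = 0.0515) and without WT_DS replicate 2 (1.02, adjusted p = 0.053), where leaving out arrays gave adjusted p-values of 0.00719 to 0.053 in all. By the methods' t-test with Benjamini-Hochberg adjustment *OsC3H60* was called in neither genotype. With a replicate block in the limma model it was called in both, with adjusted p = 0.000494 in WT and 0.000121 in H49.

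*OsC3H2* is *OsDOS*, a nuclear CCCH protein that is known to delay the onset of leaf senescence in rice. Its log2 values were 7.54, 7.90 and 7.62 in WT_CT and 9.11, 8.95 and 8.81 in WT_DS. In H49_CT they were 7.90, 7.64 and 7.25, and in H49_DS 8.53, 8.43 and 9.06. The groups did not overlap in either genotype. *OsC3H2* rose 2.41-fold in WT, a log2 change of 1.27 (SE 0.22, limma adjusted p = 0.00113), and 2.12-fold in H49, a log2 change of 1.08 (limma adjusted p = 0.00277). In H49 the change was below 2-fold without H49_CT replicate 3 (0.91) and without H49_DS replicate 3 (0.89).

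*OsC3H22* and *OsC3H23*, which follow each other with 0 coding genes between them in the reference assembly, were both in the lower part of the family. For *OsC3H22* the log2 values were 7.12, 7.49 and 7.26 in WT_CT and 6.82, 5.64 and 6.18 in WT_DS. In H49_CT they were 7.28, 7.05 and 7.11, and in H49_DS 5.99, 5.74 and 6.07. WT_DS replicate 1 lay closest to the controls, and no DS array reached a control array of its genotype. The fall of *OsC3H22* was 2.11-fold in WT, a log2 change of -1.08 (SE 0.25, limma adjusted p = 0.00681), and 2.32-fold in H49, a log2 change of -1.21 (limma adjusted p = 0.00305). In WT the change was below 2-fold without WT_CT replicate 2 (-0.98) and without WT_DS replicate 2 (-0.79). For *OsC3H23* the log2 values were 5.35, 5.96 and 5.55 in WT_CT and 5.52, 4.85 and 4.95 in WT_DS, which overlap. In H49_CT they were 5.87, 5.60 and 5.43 and in H49_DS 4.89, 4.11 and 4.49, which do not. *OsC3H23* fell 2.20-fold in H49, a log2 change of -1.14 (SE 0.25, limma adjusted p = 0.00472), beside a log2 change of -0.51 in WT that did not pass (adjusted p = 0.154). The difference between both responses was -0.62 with a 95% interval from -1.39 to 0.14 and did not pass the test (adjusted p = 1). Without H49_DS replicate 2 the fall in H49 was below 2-fold (-0.94). Whether probes of these neighbours share sequence was not tested.

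*OsC3H59* and *OsC3H54* were called in 1 genotype each. The log2 values of *OsC3H59* were 5.52, 4.73 and 5.40 in WT_CT, 4.32, 3.98 and 4.52 in WT_DS, 5.54, 5.18 and 5.74 in H49_CT and 4.18, 4.24 and 4.70 in H49_DS. The DS arrays lay below the controls in both genotypes. *OsC3H59* fell 2.15-fold in H49, a log2 change of -1.11 (SE 0.25, limma adjusted p = 0.00511), and passed the adjusted p but not the fold in WT (-0.94, adjusted p = 0.0135). It was called in WT without WT_CT replicate 2 (-1.19) or without WT_DS replicate 3 (-1.07), and was below 2-fold in H49 without H49_CT replicate 3 (-0.98). Without replicate 1 of every group *OsC3H59* also missed the adjusted p in H49 (-0.98, limma adjusted p = 0.0788). The log2 values of *OsC3H54* were 8.51, 8.27 and 7.40 in WT_CT, 6.55, 7.15 and 6.96 in WT_DS, 8.55, 8.25 and 7.62 in H49_CT and 7.33, 7.15 and 7.53 in H49_DS. Replicate 3 was the lowest control array in both genotypes, and no DS array reached that of its own genotype. *OsC3H54* fell 2.25-fold in WT, a log2 change of -1.17 (SE 0.30, limma adjusted p = 0.0117), beside a change of -0.81 in H49 that did not pass (adjusted p = 0.0628). The call in WT was lost without WT_CT replicate 1 (-0.95, adjusted p = 0.053) and without replicate 1 of every group (-0.78, adjusted p = 0.154), and *OsC3H54* was called in H49 without H49_CT replicate 3 (-1.07, adjusted p = 0.027). Over all arrays left out in turn its adjusted p from limma lay between 0.00344 and 0.154 in WT and between 0.027 and 0.269 in H49. The difference in response was 0.37 for *OsC3H54* and -0.16 for *OsC3H59*, each with adjusted p = 1 from limma.

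For each of these 7 genes, the exact permutation test of a called difference, two-sided, gave p = 0.1, the smallest that 3 arrays against 3 allow. The adjusted p-values use the spread that limma shares across genes. In the family as a whole the control and DS arrays did not overlap for 16 members in WT (42.1%, beside 39.9% of all genes) and for 18 in H49 (47.4%, beside 44.8% of all genes).

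A further 5 members passed the adjusted p in both genotypes with changes below 2-fold. *OsC3H50* was higher after DS, with log2 changes of 0.91 in WT and 0.76 in H49 (limma adjusted p = 0.0043 and 0.0107). *OsC3H20*, which is *Ehd4*, a promoter of flowering in rice, had changes of 0.70 and 0.75 (adjusted p = 0.00968 and 0.00609), and *OsC3H32* of 0.69 and 0.56 (adjusted p = 0.0134 and 0.0346). Lower after DS were *OsC3H53*, with changes of -0.74 and -0.89 (adjusted p = 0.0169 and 0.00558), and *OsC3H13*, listed also as *bip105*, with -0.54 and -0.51 (adjusted p = 0.0321 and 0.0391). A second, lower probe set of *OsC3H53* changed by -0.36 in WT and 0.04 in H49 and did not pass the test in either. With these 5, *OsC3H59* and the 4 genes called in both genotypes, 10 members passed the adjusted p alone in both genotypes and in the same direction. The 6 that rose make up 15.8% of the family, against 6.86% of all genes, and the 4 that fell make up 10.5%, against 13.3% of all genes. Within 1 genotype, 11 members (28.9%) passed the adjusted p in WT and 11 in H49, against 26.5% and 27.1% of all genes. They were 6 higher and 5 lower in each, beside 9.25% higher and 17.2% lower over all genes in WT and 9.48% and 17.7% in H49. After centring of arrays on their median over genes, *OsC3H13* no longer passed: its change was -0.33 in WT and -0.29 in H49 (limma adjusted p = 0.131 and 0.172). *OsC3H53* then had -0.53 in WT (adjusted p = 0.0732) and still passed in H49 (-0.67, adjusted p = 0.0286). Other members passed only with this centring, all as higher and below 2-fold. *OsC3H37* did so in both genotypes (0.70 and 0.75, limma adjusted p = 0.05 and 0.0368), *OsC3H5* and *OsC3H10* in WT, and *OsC3H15* and *OsC3H47* in H49. In that scaling 7 members passed as higher and 2 as lower in both genotypes.

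**Figure D2:**
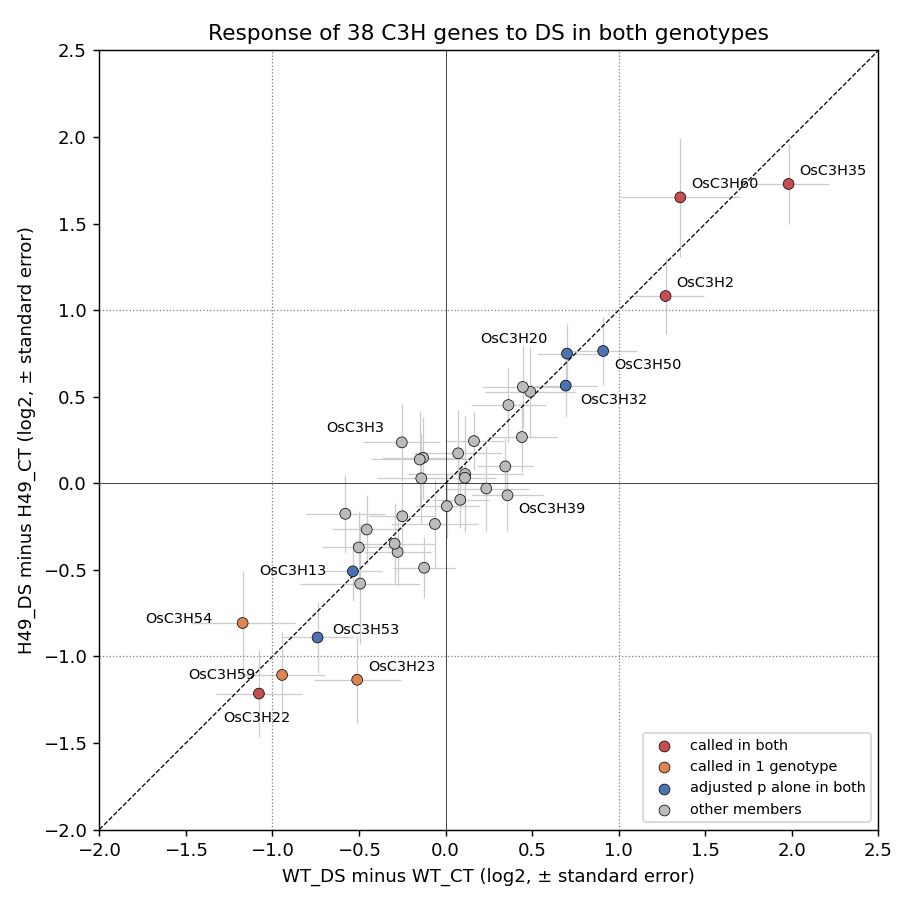
Log2 response to DS of the 38 C3H genes in WT (x axis) and in the arrays labelled H49 (y axis), each with its standard error from limma. Dotted lines mark a 2-fold change and the dashed line equal responses; *OsC3H35*, *OsC3H60* and *OsC3H2* lie beyond 2-fold at the upper right and *OsC3H22* at the lower left, while most members lie within 2-fold on both axes.

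On the values as deposited, the remaining 26 members passed the adjusted p in neither genotype, and their responses ran from -0.58 to 0.56 on the log2 scale. *OsC3H46* is *OsLIC*, a regulator of brassinosteroid response and leaf and tiller angle, and had values of -0.50 in WT and -0.37 in H49 (adjusted p = 0.0988 and 0.221 from limma). Named outside the rule for their known roles, *OsC3H10* and *OsC3H47*, both linked to drought tolerance in rice, had values of 0.44 and 0.27, and 0.45 and 0.56. *OsC3H12*, linked to resistance to bacterial blight, had values of -0.06 and -0.24. The members with the smallest mean response were *OsC3H65* (0.08 and -0.10), *OsC3H66* (-0.15 and 0.14) and *OsC3H3* (-0.25 and 0.24). The others with no call were *OsC3H4*, *OsC3H5*, *OsC3H6*, *OsC3H8*, *OsC3H9*, *OsC3H11*, *OsC3H14*, *OsC3H15*, *OsC3H27*, *OsC3H33*, *OsC3H34*, *OsC3H37*, *OsC3H39*, *OsC3H40*, *OsC3H43*, *OsC3H44*, *OsC3H45*, *OsC3H55* and *OsC3H67*.

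In each genotype 19 members had a positive response and 19 a negative one. The median response of the family was -0.03 on the log2 scale in WT, beside -0.06 for all genes, and -0.00 in H49, beside -0.06. The sizes were alike too: the median absolute response was 0.40 for members and 0.38 for all genes in WT, and 0.36 and 0.38 in H49. The family's responses in WT and H49, which share no arrays, had Pearson's r = 0.936 and Spearman's rho = 0.90 across the 38 genes, beside 0.908 and 0.855 across all genes, where genes are not independent replicates. In all, 30 members had the same sign in both genotypes (78.9%, beside 83.3% of all genes), and among the other 8 no response exceeded 0.36 in size.

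The direction of a small change depended on how the arrays were scaled. With that centring, the median response of all genes moved from -0.06 to 0.14 in WT and to 0.16 in H49, and that of the family to 0.18 and 0.22. In that scaling 4 members were called higher and 0 lower in WT, and 3 higher and 0 lower in H49, and over all genes the share of calls that were lower was 41.3% in WT, where it had been 63.2%, and 43.8% in H49, where it had been 63.9%. *OsC3H35*, *OsC3H60* and *OsC3H2* were called higher in both genotypes there, and *OsC3H50* in WT (1.12). *OsC3H22*, *OsC3H23*, *OsC3H54* and *OsC3H59* kept their negative sign at less than 2-fold, for example -0.87 for *OsC3H22* in WT and -0.92 for *OsC3H23* in H49. With quantile normalization over the tested genes 4 members were higher and 1 lower in WT, and 3 higher and 1 lower in H49.

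No C3H gene was called between genotypes, with arrays taken as labelled. This comparison asked whether arrays labelled as over-expressing *OsHOX24* held other levels of the family, where *HOX24* itself did not read higher in them. Without stress 0 of 38 members passed limma, with 0% of all genes called, and 0 members had an unadjusted p under 0.05, beside 1.92% of all genes. After DS 0 members passed, again with 0% of all genes called. On the probe set used for each gene, only *OsC3H23* had an unadjusted p under 0.05 from limma, beside 4.84% of all genes. *OsC3H23* differed by -0.61 (95% interval from -1.15 to -0.07, limma adjusted p = 0.97). Its log2 values were 4.89, 4.11 and 4.49 in H49_DS against 5.52, 4.85 and 4.95 in WT_DS, which overlap. The second probe set of *OsC3H35*, given above, differed by more (1.15, SE 0.305) but did not pass the test over all probe sets. The methods' t-test also called 0 members without stress and 0 after DS.

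**Figure D3:**
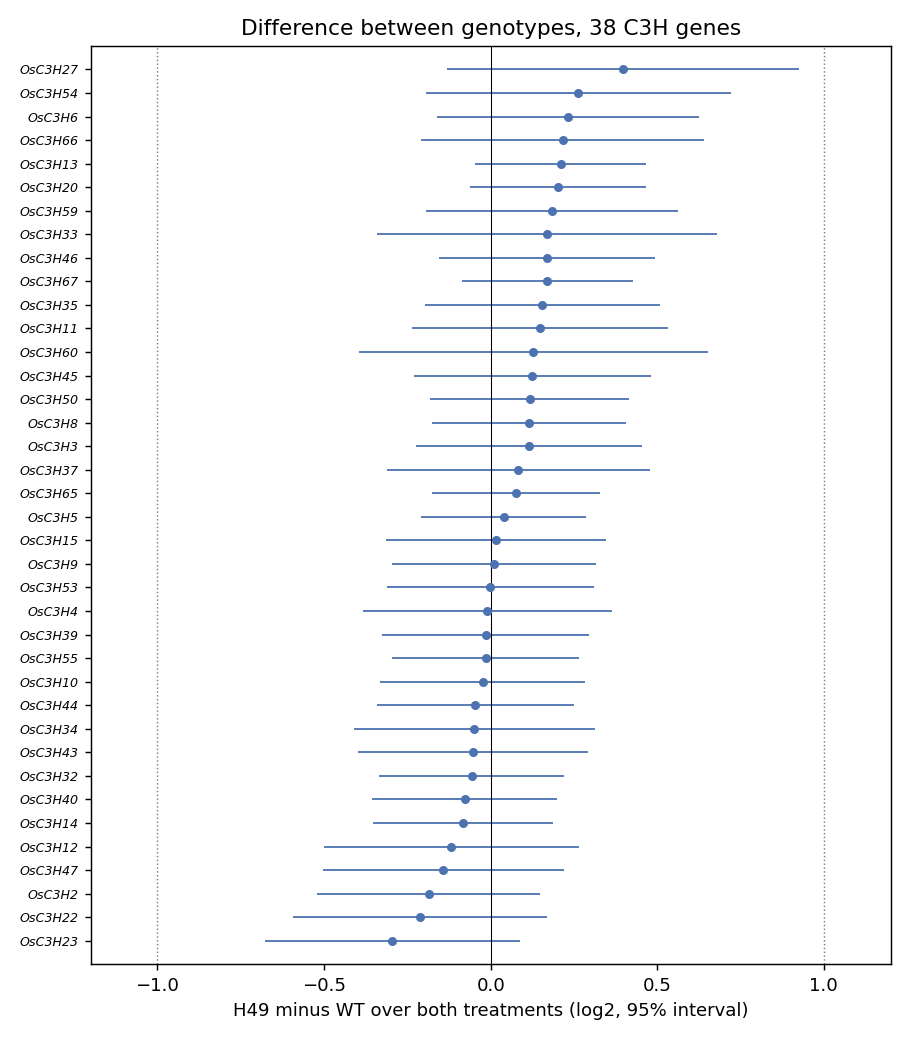
Difference of arrays labelled H49 minus arrays labelled WT over both treatments (log2, points) with its 95% interval from limma (bars), for the 38 C3H genes ordered by the difference. Each gene is shown by the probe set used for it, and the second probe set of *OsC3H35* is not drawn. Every interval includes 0 and lies within the dotted lines, which mark a 2-fold difference; the extremes are *OsC3H27* and *OsC3H23*.

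Over both treatments 0 members were called and 0% of all genes were. On the probe set used for each gene, the differences ran from -0.30 (*OsC3H23*) to 0.40 (*OsC3H27*) on the log2 scale. The 95% intervals of all 38 members on these probe sets lay between -0.68 and 0.92, inside a 2-fold change. The second probe set of *OsC3H35* differed by more, 0.76 (SE 0.22), and did not pass (adjusted p = 0.957 from limma over all probe sets). The test of a difference in response to DS called 0 members and 0% of all genes, and 0 members had an unadjusted p under 0.05, beside 2.38% of all genes. On the probe set used for each gene, the largest differences in response, H49 minus WT, included that of *OsC3H23* (-0.62). Next were *OsC3H3* (0.49, with a 95% interval from -0.19 to 1.17) and *OsC3H39* (-0.43, with an interval from -1.05 to 0.19). The second probe set of *OsC3H35* had 0.79 (SE 0.43), which did not pass the test over all probe sets. The intervals of this test were wide, and 27 of 38 lay inside a 2-fold difference. *OsC3H65* was the only member whose H49_CT arrays (6.97, 6.92 and 7.06) lay above all WT_CT arrays (6.82, 6.89 and 6.75), by 0.17 in the mean (adjusted p = 1 from limma), beside 4.34% of all genes. After DS 0 members had groups of arrays that did not overlap on the probe set used for the gene, beside 8.49% of all genes, while the second probe set of *OsC3H35* did not overlap, as given above.

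Arrays of 1 group differed in some members by as much as desiccation did in others. The SD within groups was 0.27 on the log2 scale in the median over members, beside 0.28 over all genes, and ran from 0.12 (*OsC3H5*) to 0.50 (*OsC3H27*). *OsC3H27* read 8.37 in WT_CT replicate 1 and 6.89 in both other WT_CT arrays, a deviation of 0.99 from the group mean that was the largest of any member. *OsC3H33* read 7.41, 8.59 and 8.22 in WT_CT and 7.62, 8.95 and 8.24 in H49_CT, so that replicate 1 was lowest and replicate 2 highest in the controls of both genotypes. WT_DS replicate 1 was the most deviant array for 10 of the 38 members.

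**Figure D4:**
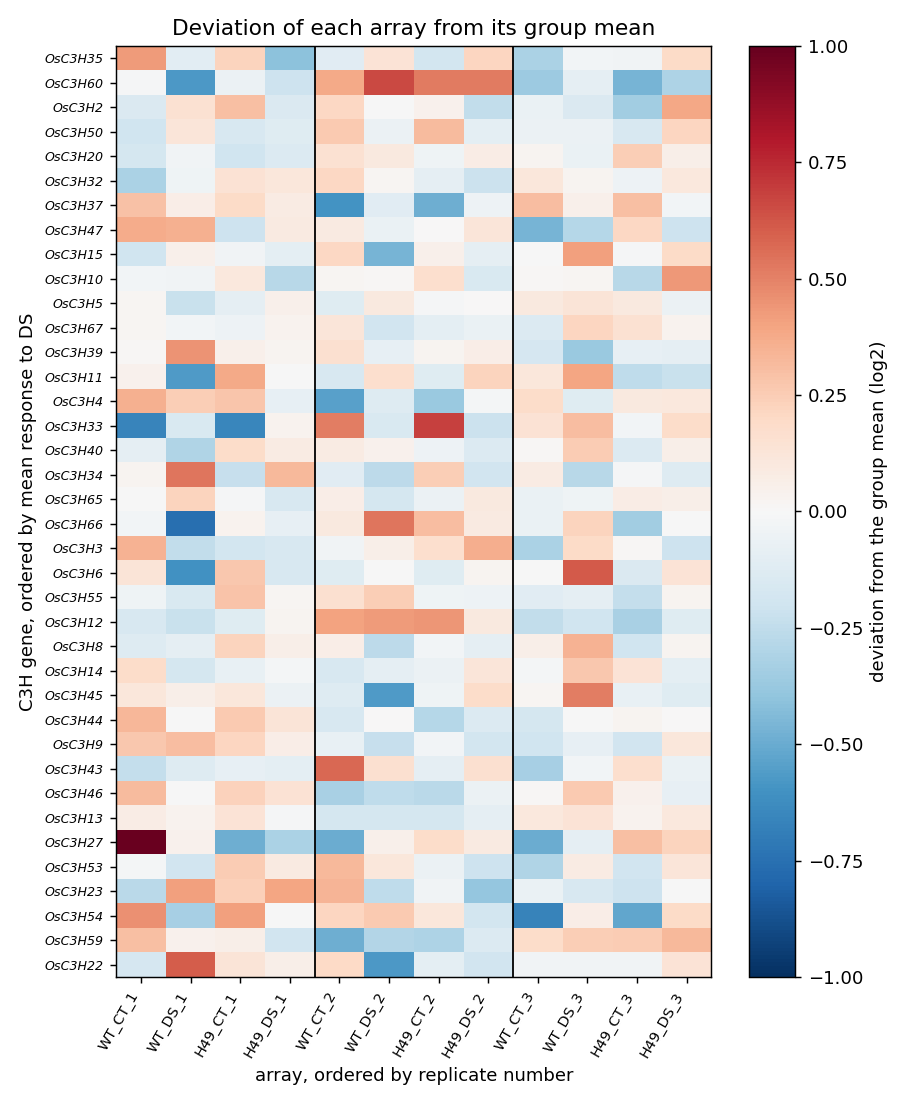
Deviation of each array from the mean of its group (log2, colour) for the 38 C3H genes, ordered from the highest to the lowest mean response to DS, with arrays ordered by replicate number. *OsC3H60* and *OsC3H12* are above the group mean in all 4 arrays of replicate 2, and *OsC3H27* has its darkest cell in WT_CT replicate 1.

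In some members the same replicate number was highest, or lowest, in every group. *OsC3H60*, *OsC3H12* and *OsC3H66* were highest in replicate 2 of all 4 groups, *OsC3H13* and *OsC3H37* were lowest in replicate 2 of all 4, and *OsC3H39* was lowest in replicate 3. For *OsC3H12* the log2 values of replicate 2 were 6.34, 6.35, 6.30 and 5.77 in WT_CT, H49_CT, WT_DS and H49_DS, while the other arrays lay between 5.55 and 5.79. In all 6 members (15.8%) showed such a pattern, beside 12.9% of all genes. The labels do not say what a replicate number shares.

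Other genes of RNA processing and stress-associated zinc fingers were read beside the family. Of 5 measured splicing genes outside it, 1 fell in each genotype: *CBP80*, the large subunit of the nuclear cap-binding complex, with log2 changes of -1.22 in WT and -1.49 in H49 (limma adjusted p = 0.00179 and 0.000439), where 8.47% and 9.3% of all genes were called lower. Below 2-fold, *SC34* passed the adjusted p in both genotypes (-0.60 and -0.80, adjusted p = 0.0424 and 0.00952), *U2AF65B* in WT (adjusted p = 0.0314) and *RSZ23* in H49 (-0.47, adjusted p = 0.0486). *U2AF65A* and *U2AF65B*, which encode the large subunit that pairs with U2AF35, had values of 0.37 and -0.56 in WT and 0.09 and -0.46 in H49, none of them called, beside the rise of *OsC3H60*. The list had a median of -0.56 in WT and -0.47 in H49, beside -0.06 for all genes in both. Of 8 measured A20/AN1 stress-associated protein genes, 0 were called in either genotype, where 13.4% of all genes were called in WT and 14.6% in H49. Their median response was 0.39 in WT and 0.24 in H49, and *OsSAP6* had the highest, 0.73 and 0.99 (adjusted p = 0.0281 and 0.00559). *OsSAP5* also passed the adjusted p from limma in WT (0.57, adjusted p = 0.0304). *OsSAP2* (0.75, adjusted p = 0.0174) and *OsSAP4* (0.83, adjusted p = 0.0119) passed it in H49, all below 2-fold. The list of mRNA turnover held 1 measured gene, *OsPAB1*, with values of -0.48 and -0.23, neither past the test.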

How the data were processed

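The deposited values were log2 values, 1 per probe set and array, that the authors prepared by RMA in Genespring, and they were used without further scaling. The genome build is not given in the sources used here. Probe sets were joined to genes by entrez identifier. Of 54922 probe sets, 15829 carried 1 gene symbol, 440 several and 38653 none here. The probe set of highest mean stood for each of 15140 genes (627 had more than 1). Members and lists were chosen with earlier results of these data known.

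The model had a mean for each of the 4 groups and all 12 arrays (limma 3.58.1, R 4.3.3), and p-values were adjusted by Benjamini-Hochberg over all genes. The number of arrays limits precision: the median standard error of members was 0.22 for 3 arrays against 3. The fit was tested on simulated data with independent noise in each array. Deviations shared by arrays with the same replicate number were not simulated. Named with every array's value were members called after DS. Others were named if they passed the adjusted p in both genotypes, had the 3 smallest responses or 3 largest differences in response, or carried another gene name. Alternatives covered scaling, dim genes, probe sets, variance model, fold, the methods' t-test, a replicate block and leaving out arrays. Sequence features were not analysed here. Python 3.11.15, pandas 2.3.3 and matplotlib 3.10.9 made tables and figures.

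Of 18 pairs of arrays with the same replicate number, 13 had deviations from their group means that correlated above 0.1 across genes. The highest correlation was 0.39 and the lowest -0.20, and all pairs not above 0.1 were of replicate 1. Arrays with the same number therefore shared part of their deviations, at least in replicates 2 and 3. The main model still held no block for the number. A block was run as an alternative, and it called the same members after DS.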

Additional observations from a re-analysis of the deposited data

How the results depend on the processing

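*OsC3H35* was called higher in both genotypes under every alternative run. Of 336 values of the 7 called genes under alternatives, 305 kept their direction and side of the threshold, 26 lost the call, 5 gained one and 0 changed sign. These counts are no measure of robustness, as part of them was fixed beforehand. Settings that altered only the test, the fold or the genes tested, or left out arrays of the other genotype, could not alter a log2 change. A lower fold minimum could not lose a call. Values kept include those of *OsC3H23*, *OsC3H54* and *OsC3H59* in the genotype where they were not called. The counts between genotypes were 0 in all 92 cases. For DS, centring gave 3 members in H49, with no fallen member in either genotype. The methods' t-test after Benjamini-Hochberg adjustment gave 2 members in WT and 2 in H49 (5 and 6 unadjusted). Called by it were *OsC3H35* and *OsC3H2* in WT and *OsC3H35* and *OsC3H22* in H49, so that of the 4 genes called in both genotypes only *OsC3H35* was called in both by this test. It was not run for differences over both treatments or in response. Without a fold minimum there were 11 in each genotype, and at 1.5-fold 10 in WT. With arrays left out the WT count lay between 3 (without WT_DS replicate 2) and 6, and the H49 count between 5 and 6. Without replicate 1 of every group they were 4 and 5. A replicate block left them at 5 and 6, with the same genes, and 10 of 12 arrays had their highest correlation with the number they share. The filter on dim genes kept 28 of 38 members, and all called ones were among them. The cause of these shifts was not tested. With 3 arrays a group, a member not called is not shown to be unchanged.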
